A study of Mus musculus with 12 samples.

Results

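The 26S proteasome is the barrel and cap that degrade proteins marked with ubiquitin, and its subunits are encoded by genes named Psma, Psmb, Psmc and Psmd, with the activators named Psme. All probe sets with 1 gene symbol that begins with one of these 5 stems were taken, and each gene was read from its brightest probe set (highest mean of the 12 arrays). This gave 46 probe sets of 44 genes, among 23521 probe sets of 22180 genes with 1 symbol. Of the 44 names, 42 are subunits, cap chaperones or activators, and 2 (Psmc3ip and Psme3ip1) share the stem but are not subunits. Psma4, the remaining ring subunit, lay only on probe sets that list several genes and was not analysed here. All 44 genes were tested, with no filter on low values.

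Expression was measured on Affymetrix gene arrays in splenic regulatory T cells (Treg), the Foxp3-expressing T cells that restrain immune responses, sorted by flow cytometry from DEREG mice. In this strain, the Foxp3 promoter drives a diphtheria toxin receptor fused to green fluorescent protein, so diphtheria toxin (DTx) can delete the Treg present at injection. All mice were sensitised and challenged with ovalbumin (OVA), which gives allergic airways disease. The iTreg group (4 arrays) came from mice depleted of endogenous Treg with DTx at 40 ng/g and then given intravenous immunoglobulin (IVIg) at 2 g/kg. The e_iTreg group (4 arrays) came from mice given IVIg at 2 g/kg without DTx and is labelled as a mix of endogenous and induced cells. The eTreg group (4 arrays) came from mice given the control protein human serum albumin (HSA) at 2 g/kg, with no DTx according to the series design. The protocol text is worded alike for all samples and places DTx before IVIg or HSA, so the grouping here follows the series design. DTx with HSA is not among the groups, so DTx and IVIg cannot be told apart in iTreg against eTreg, and DTx is the labelled difference in iTreg against e_iTreg. For age and for the number of mice behind an array, the sources used here give nothing.

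The 12 arrays correlated pairwise at 0.966 to 0.993, and the mean level of the Treg and T cell markers (Foxp3, Il2ra, Ctla4, Cd3e and others, 10 of 12 measured) was 11.60 to 11.72 in iTreg, 11.61 to 11.72 in e_iTreg and 11.65 to 11.75 in eTreg. Of 12 arrays, 3 had the signal of 1 sex, with Xist at 5.82 in e_iTreg replicate 4 and the Y-linked Eif2s3y at 4.47 in iTreg replicate 4 and 4.33 in eTreg replicate 3. The other 9 arrays had both Xist and Y-linked transcripts. B cell markers were lowest in e_iTreg replicate 4 and eTreg replicates 3 and 4, with list means of 6.14 to 6.30 there and 6.94 to 7.82 elsewhere. The calls that remained without these arrays are given below.

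As background, the core of the proteasome is a stack of rings. Outer rings of alpha subunits gate the chamber, and inner rings of beta subunits hold the 3 catalytic sites, carried by Psmb5 (chymotrypsin-like), Psmb6 (caspase-like) and Psmb7 (trypsin-like). In lymphocytes and in cells exposed to interferon-gamma, newly built cores can take up Psmb8, Psmb9 and Psmb10 in place of Psmb5, Psmb6 and Psmb7, which makes the immunoproteasome and changes the peptides offered to MHC class I. A cap of ATPases (Psmc) and non-ATPases (Psmd) binds ubiquitinated proteins, unfolds them and feeds them in. The other lids are the activators: Psme1 and Psme2, which are interferon-inducible, the nuclear Psme3, and Psme4.

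The immunoproteasome genes and the constitutive genes are known to be switched on through different promoter elements, and the stretches before the start sites of both kinds are shown for that reason. Constitutive genes can be raised through antioxidant response elements by Nfe2l1 and Nfe2l2, and immunoproteasome genes by interferon-gamma through gamma-activated sites and related elements. In the 150 bases before the start of each gene below (RefSeq, GRCm38.p6, 5′ to 3′ on the gene's strand), capitals mark a match, on either strand, to TGACNNNGC (antioxidant response element), TTCNNNGAA (gamma-activated site), GAAA, any 2 bases and GAAA again (interferon-stimulated response element) or CCAAT (the box bound by NF-Y). The stretches lie at chr14:54617996-54618145 (minus strand) for Psmb5, chr17:34198045-34198194 (plus strand) for Psmb8, chr11:70525207-70525356 (plus strand) for Psmb6 and chr17:34187331-34187480 (minus strand) for Psmb9.
Psmb5: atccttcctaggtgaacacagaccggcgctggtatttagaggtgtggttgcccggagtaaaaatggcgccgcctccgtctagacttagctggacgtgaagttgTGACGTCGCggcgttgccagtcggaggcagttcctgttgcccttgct
Psmb8: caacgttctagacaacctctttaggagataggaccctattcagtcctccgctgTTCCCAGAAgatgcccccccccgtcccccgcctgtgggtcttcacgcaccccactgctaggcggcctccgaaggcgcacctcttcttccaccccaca
Psmb6: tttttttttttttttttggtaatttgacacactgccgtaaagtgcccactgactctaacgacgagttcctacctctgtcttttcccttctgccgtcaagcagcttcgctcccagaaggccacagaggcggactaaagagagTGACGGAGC
Psmb9: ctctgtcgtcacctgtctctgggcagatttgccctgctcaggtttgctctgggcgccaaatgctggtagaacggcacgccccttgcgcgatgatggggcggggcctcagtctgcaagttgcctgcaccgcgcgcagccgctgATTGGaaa

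The catalytic partners Psmb5 and Psmb8 differed in these letters. Psmb5 held an antioxidant response element match at base -47 from the start (the base before the start is -1), and Psmb8 held a gamma-activated site match at base -97. Psmb6 held an antioxidant response element match at base -9, and Psmb9 a CCAAT box on the other strand at base -8. Promoters of 250 bases before to 50 after the start were in the table for 37 of the 44 genes (41 promoters). The antioxidant response element letters were in 6 of 41 member promoters (14.6%), against 12.4% of all 32851 promoters, and of the 6 genes that hold them (Psmb5, Psmb6, Psmc6, Psmd12, Psmd9 and Psme4) 3 rose in iTreg against eTreg and 3 did not pass the test. CCAAT was in 16 of 41 (39.0%) against 37.4% of all, the gamma-activated site in 2 (4.88%, Psmb8 and Psmd2) against 8.30%, and the interferon-stimulated response element in 4 (9.76%, Psmb3, Psmd4, Psmd9 and Psme1) against 3.44%. Psmb10, the remaining immunoproteasome gene, had a promoter in the table and held no match to any of these motifs. A match describes letters only. No motif overlapped another in the stretches printed.

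Most proteasome genes were higher in iTreg than in both other groups. Against eTreg, 28 of 44 rose and 0 fell, where 5.36% of all probe sets rose, 4.63% fell and 9.99% changed either way (limma, adjusted p under 0.05 over all 23521 probe sets, called "past the test" below). Against e_iTreg, 30 of 44 rose and 1 (Psmb11) fell, where 6.49% of all probe sets rose, 4.75% fell and 11.2% changed. Both counts of genes that rose hold Psmc3ip, which is not a subunit. Of the 33 core and cap subunits measured, with the immunoproteasome, 26 rose against eTreg and 28 against e_iTreg. The share called was larger among brighter probe sets. Above the median level, 22.7% changed against eTreg and 25.2% against e_iTreg, with 29 and 32 members called, all higher. Above log2 6, 18.0% and 20.7% changed, with 29 and 32 members called. Differences are given below as log2 differences ± SE with 4 arrays per group, and levels as log2 expression by replicate, 1 to 4. The differences were small: the median log2 difference over the 44 genes was 0.37 in iTreg minus eTreg (all probe sets -0.01) and 0.42 in iTreg minus e_iTreg (all -0.07). In each comparison 34 of 44 had an unadjusted p under 0.05, beside 21.7% and 26.3% of all probe sets. Both comparisons use the same iTreg arrays, so they are not independent of each other.

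For 30 of the 44 genes every iTreg array lay above all 8 others, against 5.08% of all probe sets. Every iTreg array lay above all e_iTreg arrays for 34 genes (7.57% of all probe sets) and above all eTreg arrays for 32 (6.90%). These 30 genes held 4 of 6 alpha subunits, 6 of 7 constitutive beta subunits, the 3 immunoproteasome subunits, the 6 cap ATPases, 9 of 11 cap non-ATPases, 1 of 3 cap chaperones, 0 of 4 activators, 0 of 2 tissue-restricted subunits and 1 of the 2 genes that are not subunits. The core and cap genes outside the 30 were Psma3, Psma5, Psmb3, Psmd2 and Psmd4.

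**Figure D1:**
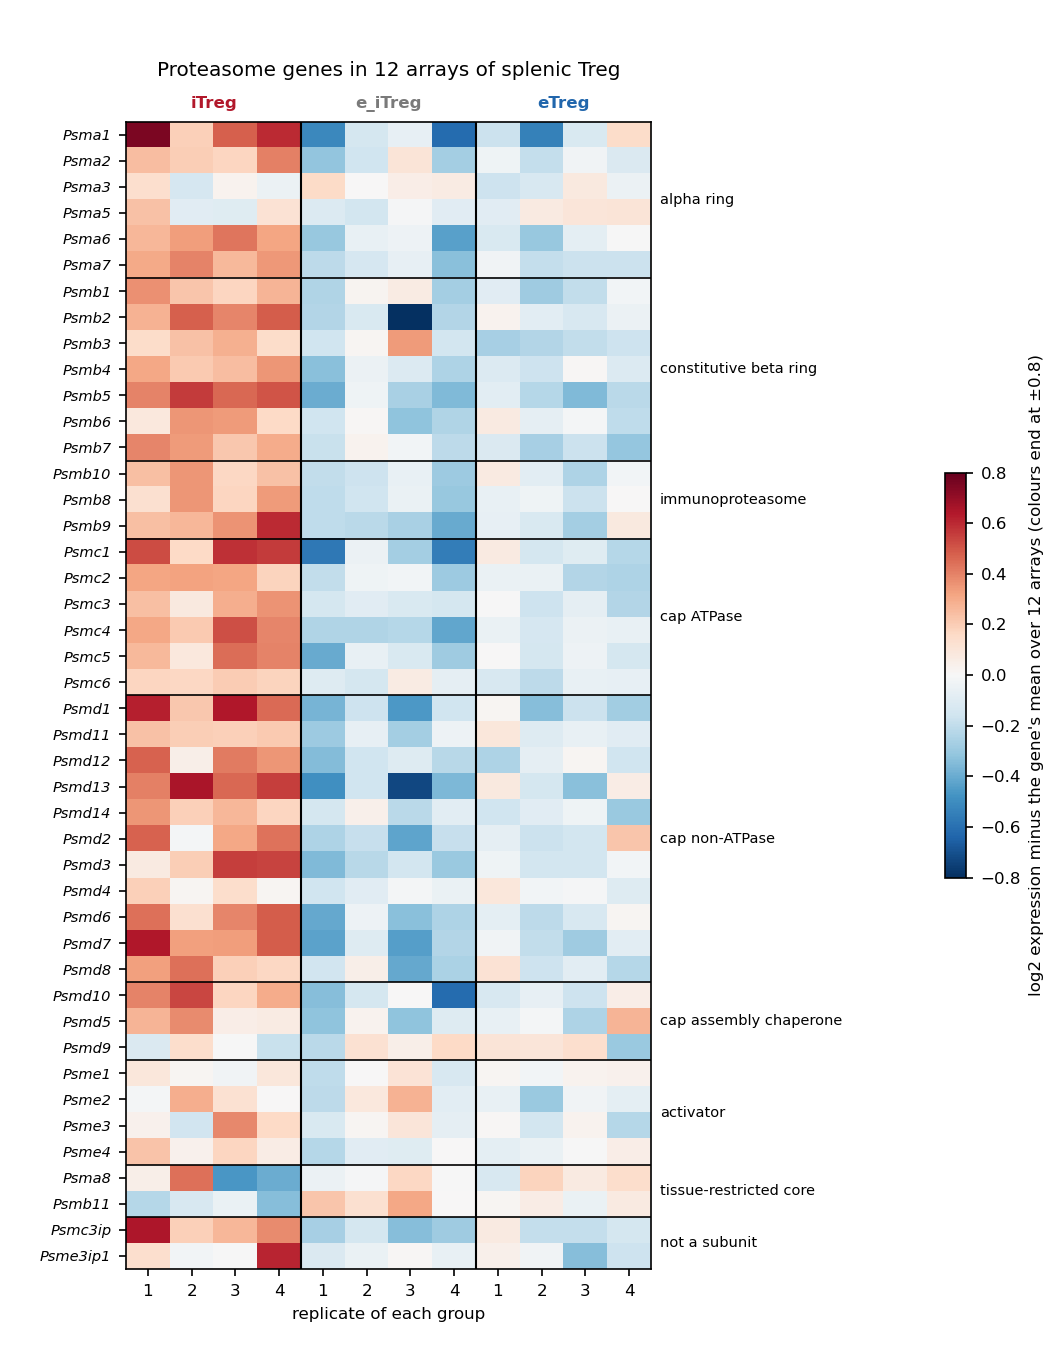
Heat map of the 44 genes (rows, grouped by role) in 12 arrays (columns, 4 per group): the colour is the log2 expression minus the gene's mean over all arrays. For 30 of the 44 genes all 4 iTreg arrays lie above the other 8, while Psma3, Psma5, Psmd9, Psma8, Psmb11 and the 4 activators are among the rows where they do not.

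The number of calls against eTreg depended on the arrays. It was 13 without eTreg replicate 2, 18 without eTreg replicate 3 or 4, 17 without iTreg replicate 4 and 18 without iTreg replicate 1 or 3, with medians of 0.35 to 0.39 in those fits. Of all probe sets, 6.32% to 8.08% were called there. Without the 3 arrays that had the signal of 1 sex, 8 were called against eTreg and 12 against e_iTreg (4.95% and 4.55% of all probe sets), and the median differences were 0.35 and 0.41. Without the 3 arrays low in B cell markers, 2 and 21 were called (1.70% and 5.77% of all), and the medians were 0.37 and 0.39. Without the arrays of 1 sex, the genes called against eTreg were Psma6, Psma7, Psmb5, Psmb7, Psmc2, Psmd1, Psmd7 and Psmd14, with adjusted p of 0.0121 (Psmb5) to 0.0491. Without the arrays low in B cell markers they were Psma1 (0.86, adjusted p = 0.0412) and Psmb5 (0.64, adjusted p = 0.0384), so Psmb5 was the one gene called against eTreg in both fits. The calls of all other proteasome genes against eTreg were lost in at least 1 of these 2 fits.

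The outer alpha ring was raised except for 2 subunits. Of 6 measured alpha genes, 4 rose against eTreg and the same 4 against e_iTreg (Psma1, Psma2, Psma6 and Psma7). Psma7, whose subunit belongs to the ring that gates the chamber, was at 11.15, 11.25, 11.11 and 11.20 in iTreg, at 10.64, 10.71, 10.78 and 10.52 in e_iTreg and at 10.82, 10.66, 10.68 and 10.67 in eTreg. Psma6, of the same ring, was at 10.96, 11.03, 11.13 and 11.01 in iTreg, at 10.39, 10.64, 10.65 and 10.26 in e_iTreg and at 10.57, 10.39, 10.62 and 10.69 in eTreg. For both, every iTreg array lay above all other arrays, and the difference was 0.47 ± 0.09 (adjusted p = 0.00425) for Psma7 and 0.46 ± 0.11 (adjusted p = 0.0131) for Psma6 in iTreg minus eTreg. Psma1 was at 11.04, 10.48, 10.77 and 10.89 in iTreg, at 9.78, 10.15, 10.22 and 9.68 in e_iTreg and at 10.12, 9.75, 10.17 and 10.44 in eTreg. Its spread within each group was wider, and its difference was 0.68 ± 0.16 (adjusted p = 0.0162). Without eTreg replicate 2 or iTreg replicate 1, Psma1 no longer passed, and its adjusted p reached 0.0587.

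Psma3 and Psma5 did not pass in either comparison. Psma3 lay between 11.08 and 11.35 in iTreg, between 11.22 and 11.37 in e_iTreg and between 11.05 and 11.30 in eTreg. The brightest Psma5 probe set was dim at 5.31 to 5.69 in all 12 arrays, so for Psma5 the array gave little signal in any group. Its difference was -0.01 ± 0.10 (adjusted p = 0.987) in iTreg minus eTreg, with groups that overlap. Psma2 passed against eTreg with a difference of 0.35 ± 0.10 (adjusted p = 0.0490), but in none of the 8 fits that left out 1 array, where its adjusted p reached 0.139.

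In the constitutive beta ring, 6 of 7 genes rose against eTreg and 6 of 7 against e_iTreg. Psmb5, the chymotrypsin-like site, was at 11.25, 11.41, 11.31 and 11.35 in iTreg, at 10.45, 10.81, 10.59 and 10.50 in e_iTreg and at 10.76, 10.62, 10.49 and 10.63 in eTreg. Every iTreg array lay above all others, by more than the spread within any group. Its difference was 0.70 ± 0.10 (adjusted p = 0.00111) in iTreg minus eTreg, a 1.63-fold change, and 0.74 ± 0.10 (adjusted p = 0.000883) in iTreg minus e_iTreg. This was the largest difference of the 44 genes against eTreg in this fit.

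The trypsin-like Psmb7 was at 10.40, 10.35, 10.22 and 10.31 in iTreg, at 9.83, 10.04, 9.99 and 9.80 in e_iTreg and at 9.89, 9.74, 9.83 and 9.70 in eTreg. The iTreg arrays overlapped neither group, and the difference was 0.53 ± 0.09 (adjusted p = 0.00254) against eTreg and 0.40 ± 0.09 (adjusted p = 0.0112) against e_iTreg. The caspase-like Psmb6 was at 10.04, 10.30, 10.29 and 10.11 in iTreg, at 9.79, 9.97, 9.63 and 9.71 in e_iTreg and at 10.02, 9.88, 9.94 and 9.75 in eTreg. The lowest iTreg array was close to the highest eTreg array, and Psmb6 did not pass against eTreg (0.29 ± 0.10, adjusted p = 0.103), while it passed against e_iTreg (0.41 ± 0.10, adjusted p = 0.0207). Psmb4, a non-catalytic beta subunit, was at 11.24, 11.14, 11.18 and 11.29 in iTreg, at 10.60, 10.89, 10.82 and 10.69 in e_iTreg and at 10.83, 10.77, 10.95 and 10.83 in eTreg, and its difference was 0.37 ± 0.09 (adjusted p = 0.0174) in iTreg minus eTreg. Without eTreg replicate 2 or iTreg replicate 4 it no longer passed (adjusted p up to 0.0597), and without e_iTreg replicate 3 or 4 or iTreg replicate 3 Psmb6 no longer passed against e_iTreg (up to 0.0601). The other 3, Psmb1, Psmb2 and Psmb3, had differences of 0.40 to 0.46 in iTreg minus eTreg, and Psmb3 did not pass against e_iTreg (0.19 ± 0.11, adjusted p = 0.276). Leaving out 1 array lost the call against eTreg of Psmb2 in 6 of 8 fits (adjusted p up to 0.0909). It lost those of Psmb1 and Psmb3 in 4 each (up to 0.0791 and 0.0615).

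Over the 7 constitutive beta genes, the mean level per array was 10.43 to 10.49 in iTreg, 9.91 to 10.13 in e_iTreg and 9.96 to 10.07 in eTreg. The iTreg arrays lay close together, and the lowest of them was above the highest other array.

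The 3 immunoproteasome genes rose in iTreg in both comparisons. Psmb9 was at 11.14, 11.17, 11.26 and 11.50 in iTreg, at 10.70, 10.69, 10.64 and 10.50 in e_iTreg and at 10.84, 10.78, 10.64 and 10.98 in eTreg. Psmb10 was at 11.29, 11.40, 11.21 and 11.29 in iTreg, at 10.85, 10.88, 10.99 and 10.76 in e_iTreg and at 11.12, 10.96, 10.80 and 11.03 in eTreg. Psmb8 was at 10.18, 10.40, 10.22 and 10.39 in iTreg, at 9.85, 9.89, 10.0 and 9.75 in e_iTreg and at 9.99, 10.02, 9.88 and 10.06 in eTreg. In each of the 3 genes all iTreg arrays lay above all 8 others, with the narrowest gap for Psmb10, between iTreg replicate 3 and eTreg replicate 1. In iTreg minus eTreg the differences were 0.46 ± 0.11 (adjusted p = 0.0125) for Psmb9, 0.32 ± 0.10 (adjusted p = 0.0464) for Psmb10 and 0.31 ± 0.09 (adjusted p = 0.0444) for Psmb8. In iTreg minus e_iTreg they were 0.64 ± 0.11 (adjusted p = 0.00219), 0.43 ± 0.10 (adjusted p = 0.0102) and 0.43 ± 0.09 (adjusted p = 0.00883) in that order.

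The 3 calls differ in how they stand up to leaving out an array. Psmb9 passed against eTreg in all 8 such fits, with adjusted p up to 0.0490. Psmb8 passed in none of the 8 (adjusted p up to 0.135), and Psmb10 passed only without eTreg replicate 1 (adjusted p up to 0.155 in the others). Against e_iTreg all 3 passed in all 8 fits. In the fits without the arrays of 1 sex, none of the 3 passed against eTreg, and Psmb9 alone passed against e_iTreg, and the same held without the arrays low in B cell markers. With quantile normalization of the arrays, the calls of Psmb8 (adjusted p = 0.0963) and Psmb10 (adjusted p = 0.0580) against eTreg were lost and that of Psmb9 was kept (adjusted p = 0.0129).

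Whether the immunoproteasome subunits changed more or less than the subunits they replace was tested as the difference between partners within each array, with an exact two-sided permutation test of 4 against 4 arrays (smallest possible p 0.0286) and Benjamini-Hochberg adjustment over 9 tests, 3 pairs in 3 comparisons. None of the 9 passed, and 2 had an unadjusted p under 0.05. The 95% intervals of these differences come from limma and are not adjusted. An interval without 0 can therefore stand beside a permutation p that did not pass. For Psmb8 minus Psmb5, the value was -1.08 to -0.96 in iTreg, -0.92 to -0.59 in e_iTreg and -0.77 to -0.58 in eTreg, so the iTreg arrays did not overlap either group. The difference was -0.39 in iTreg minus eTreg (95% interval -0.59 to -0.18) and -0.31 in iTreg minus e_iTreg (-0.52 to -0.11), each with exact permutation p = 0.0286 and adjusted p = 0.129. Fitted with limma across all probe sets instead, both passed (adjusted p = 0.0180 and 0.0479). Psmb8 thus had the smaller difference of this pair in both comparisons: its log2 differences were 0.31 and 0.43, beside 0.70 and 0.74 for Psmb5.

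For Psmb9 minus Psmb6, the difference was 0.17 in iTreg minus eTreg (95% interval -0.11 to 0.46, adjusted exact permutation p = 0.514) and 0.23 in iTreg minus e_iTreg (-0.06 to 0.52, adjusted exact permutation p = 0.257). Without iTreg replicate 4, which had the highest Psmb9 value, these were 0.07 and 0.13. For Psmb10 minus Psmb7, the difference was -0.21 in iTreg minus eTreg (-0.41 to -0.01, adjusted exact permutation p = 0.257, limma adjusted p = 0.216). It was 0.02 in iTreg minus e_iTreg (-0.18 to 0.23, adjusted exact permutation p = 0.714). In e_iTreg minus eTreg, the same pair differed by -0.23 (-0.43 to -0.03, adjusted exact permutation p = 0.257, limma adjusted p = 0.704), close to its value in iTreg minus eTreg. There, Psmb8 minus Psmb5 differed by -0.07 and Psmb9 minus Psmb6 by -0.06, with intervals that hold 0. The direction in iTreg was not the same in the 3 pairs.

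**Figure D2:**
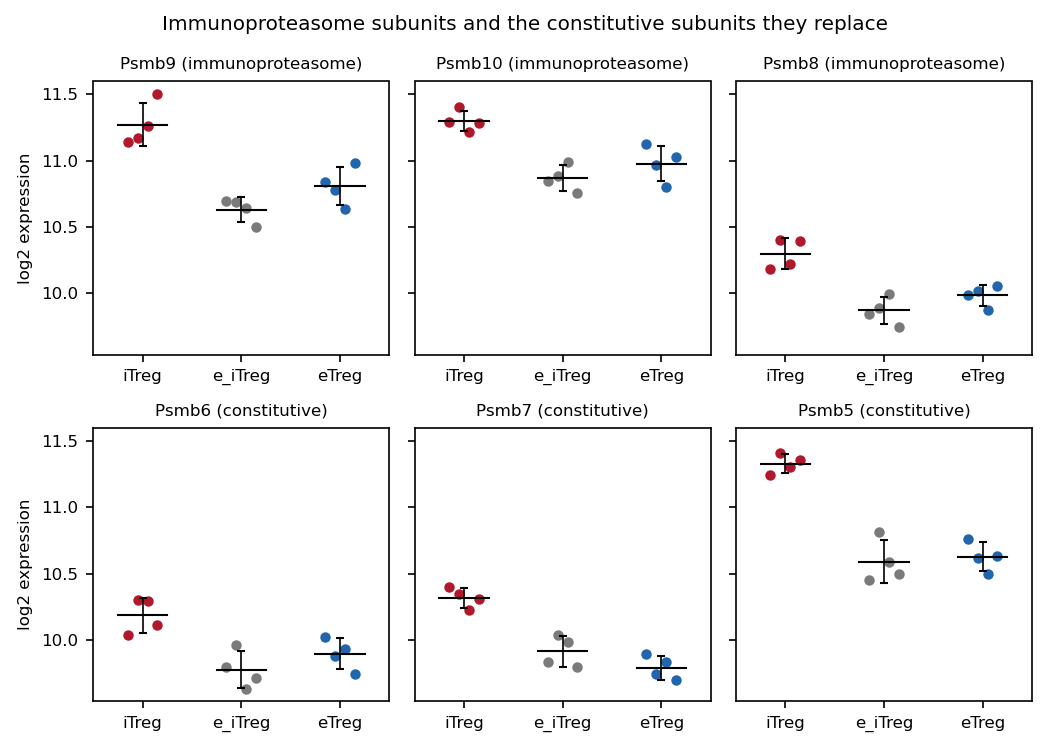
Log2 expression of the 3 immunoproteasome genes (top) and the constitutive catalytic gene each replaces (below it), with 4 arrays per group as points and the mean and SD as lines. All 4 iTreg arrays lie above the other 8 in each of the 6 panels, and the gap is widest for Psmb5.

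In the cap, 6 of 6 genes of the ATPase ring that unfolds substrates rose against eTreg, and 5 of 6 rose against e_iTreg. Not all calls against eTreg were stable. Leaving out 1 array lost that of Psmc5 in 6 of 8 fits (adjusted p up to 0.102) and that of Psmc3 in 4 (up to 0.0657). Without the 3 arrays low in B cell markers, none of the 6 passed against eTreg (limma adjusted p 0.0819 to 0.245). Psmc4 was at 9.97, 9.87, 10.18 and 10.05 in iTreg, at 9.42, 9.42, 9.43 and 9.25 in e_iTreg and at 9.61, 9.53, 9.61 and 9.61 in eTreg. Here too the iTreg arrays overlapped neither group, and the difference was 0.43 ± 0.09 (adjusted p = 0.00785) against eTreg and 0.64 ± 0.09 (adjusted p = 0.00101) against e_iTreg. Psmc2 was at 9.68, 9.69, 9.68 and 9.55 in iTreg, at 9.17, 9.33, 9.35 and 9.08 in e_iTreg and at 9.32, 9.32, 9.14 and 9.13 in eTreg, a difference of 0.43 ± 0.10 (adjusted p = 0.00997) in iTreg minus eTreg. The dimmer of its 2 probe sets (mean 7.48) spread more between arrays and did not pass (0.10 ± 0.26, SE). Psmc1 was at 9.94, 9.58, 10.0 and 9.98 in iTreg, at 8.85, 9.37, 9.15 and 8.87 in e_iTreg and at 9.49, 9.28, 9.32 and 9.19 in eTreg, with iTreg replicate 2 well below the other 3 iTreg arrays, and differed by 0.56 ± 0.13 (adjusted p = 0.0152) and 0.82 ± 0.13 (adjusted p = 0.00191) from eTreg and e_iTreg. Psmc6, the ATPase with the smallest difference, was at 10.11, 10.11, 10.14 and 10.12 in iTreg, at 9.84, 9.80, 10.01 and 9.87 in e_iTreg and at 9.81, 9.73, 9.88 and 9.87 in eTreg. Its iTreg arrays lay close together and above all others, yet the difference (0.29 ± 0.08, adjusted p = 0.0370) passed in none of the 8 fits that left out 1 array (adjusted p up to 0.116), and it did not pass against e_iTreg (0.24 ± 0.08, adjusted p = 0.0796).

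The cap non-ATPases, which scaffold the cap, bind ubiquitin and remove it, rose in 7 of 11 genes against eTreg and in 10 of 11 against e_iTreg. Psmd1, a large scaffold at the base, was at 8.89, 8.49, 8.91 and 8.72 in iTreg, at 7.90, 8.11, 7.81 and 8.11 in e_iTreg and at 8.28, 7.93, 8.10 and 7.99 in eTreg. Psmd7, the partner of the deubiquitinase Psmd14, was at 10.47, 10.16, 10.16 and 10.31 in iTreg, at 9.40, 9.73, 9.39 and 9.59 in e_iTreg and at 9.80, 9.63, 9.54 and 9.75 in eTreg. Psmd13, a lid subunit, was at 8.54, 8.79, 8.60 and 8.69 in iTreg, at 7.65, 7.98, 7.41 and 7.78 in e_iTreg and at 8.21, 8.0, 7.80 and 8.19 in eTreg. For these 3 genes all iTreg arrays lay above all others. The differences in iTreg minus eTreg were 0.68 ± 0.12 (adjusted p = 0.00280) for Psmd1, 0.60 ± 0.11 (adjusted p = 0.00335) for Psmd7 and 0.60 ± 0.13 (adjusted p = 0.00785) for Psmd13, and all 3 passed in all 8 fits that left out 1 array. Such fits lost the calls of Psmd3 and Psmd12 against eTreg in 4 of 8 each, of Psmd14 in 2 and of Psmd6 in 1. Without the 3 arrays low in B cell markers, none of the 11 passed against eTreg (limma adjusted p 0.0597 to 0.904). In iTreg minus e_iTreg, Psmd13 had the largest difference of the 44 genes (0.95 ± 0.13, adjusted p = 0.000860, 1.93-fold). In e_iTreg, Psmd13 was lowest in replicate 3 (7.41).

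Psmd4, a ubiquitin receptor of the cap, was at 9.02, 8.85, 8.97 and 8.85 in iTreg, at 8.67, 8.74, 8.82 and 8.77 in e_iTreg and at 8.92, 8.81, 8.82 and 8.72 in eTreg. It overlapped with eTreg and did not pass in either comparison, with differences of 0.10 ± 0.09 (adjusted p = 0.580) against eTreg and 0.17 ± 0.09 (adjusted p = 0.224) against e_iTreg. Psmd2, Psmd8 and Psmd11 had differences of 0.25 to 0.37 that did not pass against eTreg and passed against e_iTreg (0.37 to 0.56).

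The 3 cap assembly chaperones did not move together. Psmd10 (gankyrin) was at 9.18, 9.32, 8.96 and 9.08 in iTreg, at 8.45, 8.64, 8.79 and 8.17 in e_iTreg and at 8.66, 8.72, 8.62 and 8.84 in eTreg, and it rose in both comparisons, by 0.43 ± 0.13 (adjusted p = 0.0475) against eTreg and 0.62 ± 0.13 (adjusted p = 0.00647) against e_iTreg. The call against eTreg was lost in 7 of the 8 fits that left out 1 array, all but the one without iTreg replicate 3, with adjusted p up to 0.127. Psmd5 was at 9.15, 9.25, 8.92 and 8.94 in iTreg, at 8.55, 8.90, 8.55 and 8.77 in e_iTreg and at 8.81, 8.86, 8.63 and 9.15 in eTreg, with eTreg replicate 4 as high as iTreg replicate 1, and did not pass (0.20 ± 0.13, adjusted p = 0.411). Psmd9 was at 7.34, 7.60, 7.46 and 7.28 in iTreg, at 7.24, 7.58, 7.51 and 7.62 in e_iTreg and at 7.57, 7.56, 7.60 and 7.16 in eTreg, with overlapping groups and a difference of -0.05 ± 0.12 (adjusted p = 0.893).

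None of the 4 activators passed in either comparison (limma), where 9.99% and 11.2% of all probe sets did. At an unadjusted p under 0.05 (limma) there were 0 against eTreg and 1, Psme4, against e_iTreg, beside 21.7% and 26.3% of all probe sets. In so short a list these counts are close to those shares. With the arrays centred on their medians 1 passed, Psme4 against e_iTreg (0.32, limma adjusted p = 0.0426), beside 10.8% of all probe sets. Psme1 was at 9.58, 9.51, 9.46 and 9.58 in iTreg, at 9.29, 9.49, 9.60 and 9.37 in e_iTreg and at 9.51, 9.47, 9.52 and 9.52 in eTreg. Psme2, its partner, was at 8.44, 8.74, 8.57 and 8.45 in iTreg, at 8.25, 8.54, 8.73 and 8.37 in e_iTreg and at 8.39, 8.15, 8.42 and 8.37 in eTreg. These are the interferon-inducible lid subunits, and the iTreg arrays lay within or close to the range of the others. The difference in iTreg minus eTreg was 0.03 for Psme1 (95% interval -0.16 to 0.22) and 0.22 for Psme2 (-0.03 to 0.47). Neither was tested against the differences of Psmb8, Psmb9 and Psmb10. In iTreg minus e_iTreg it was 0.09 (-0.10 to 0.29) and 0.08 (-0.17 to 0.33).

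Psme3, the nuclear activator, was at 8.60, 8.40, 8.94 and 8.72 in iTreg, at 8.44, 8.58, 8.66 and 8.49 in e_iTreg and at 8.57, 8.41, 8.59 and 8.33 in eTreg. Psme4, an activator known for its role in chromatin, was at 8.81, 8.61, 8.75 and 8.64 in iTreg, at 8.35, 8.48, 8.48 and 8.58 in e_iTreg and at 8.50, 8.52, 8.58 and 8.63 in eTreg. Both overlapped between iTreg and eTreg, with differences of 0.19 (95% interval -0.06 to 0.44) and 0.15 (-0.04 to 0.33). Against e_iTreg the differences were 0.12 (-0.12 to 0.37) for Psme3 and 0.23 (0.04 to 0.42, limma adjusted p = 0.112) for Psme4. All iTreg arrays of Psme4 lay above all e_iTreg arrays. Whether the activators changed less than the core and cap genes was not tested. Over the 4 activators the mean level per array was 8.82 to 8.93 in iTreg, 8.58 to 8.87 in e_iTreg and 8.64 to 8.78 in eTreg.

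**Figure D3:**
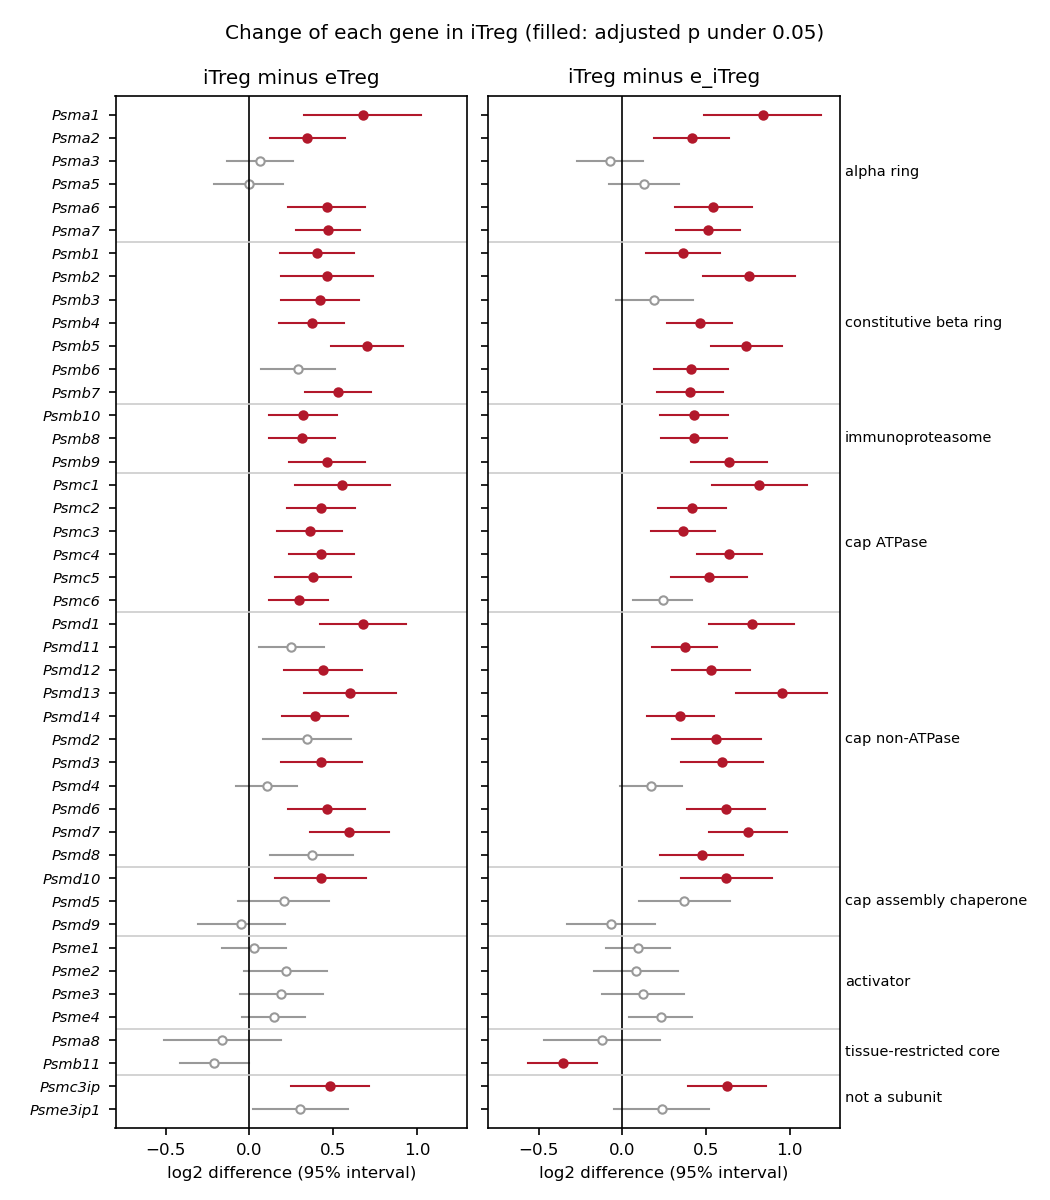
Log2 difference of each gene in iTreg minus eTreg (left) and iTreg minus e_iTreg (right) with its 95% interval from limma (4 arrays per group), filled red where adjusted p is under 0.05. Core and cap genes lie mostly between 0.25 and 0.95 with intervals right of 0, and the 4 activators have open points between 0.03 and 0.23. The interval of Psme4 against e_iTreg (0.04 to 0.42) also lies right of 0.

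The 2 tissue-restricted core subunits were not higher in iTreg in either comparison. Psmb11, known from the cortical epithelium of the thymus, was dim at 5.58, 5.68, 5.76 and 5.47 in iTreg, at 6.03, 5.94, 6.12 and 5.81 in e_iTreg and at 5.82, 5.87, 5.76 and 5.88 in eTreg. It was lower in iTreg and passed against e_iTreg (-0.35 ± 0.10, adjusted p = 0.0289) but not against eTreg (-0.21 ± 0.10, adjusted p = 0.219). That call was lost without e_iTreg replicate 1 or 3 or iTreg replicate 1 or 4 (adjusted p up to 0.0853), and with quantile normalization or median centring of the arrays. Psma8, known from the testis, was at 5.96, 6.35, 5.45 and 5.51 in iTreg, at 5.86, 5.91, 6.08 and 5.91 in e_iTreg and at 5.79, 6.09, 5.98 and 6.05 in eTreg, with the widest spread in iTreg and a difference of -0.16 ± 0.16 (adjusted p = 0.666) against eTreg.

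Of the 2 genes that only share the stem, Psmc3ip, a partner of the meiotic recombinases, was at 7.66, 7.21, 7.28 and 7.39 in iTreg, at 6.75, 6.87, 6.67 and 6.73 in e_iTreg and at 7.08, 6.82, 6.82 and 6.87 in eTreg and rose in both comparisons, by 0.48 ± 0.11 (adjusted p = 0.0112) against eTreg and 0.63 ± 0.11 (adjusted p = 0.00270) against e_iTreg. Psme3ip1, which binds the Psme3 activator, was at 10.51, 10.36, 10.38 and 11.0 in iTreg, at 10.27, 10.33, 10.39 and 10.32 in e_iTreg and at 10.42, 10.36, 10.04 and 10.22 in eTreg. Its iTreg replicate 4 lay apart, and it did not pass (0.30 ± 0.13, adjusted p = 0.195 against eTreg).

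Between e_iTreg and eTreg, which differ by IVIg or HSA with no DTx, none of the 44 genes passed (limma), nor did any other probe set (0% called). The smallest adjusted p of a member was 0.704. At an unadjusted p under 0.05 there were 3 members, beside 7.01% of all probe sets: Psmd13 (-0.35), Psmb2 (-0.29) and Psmc4 (-0.21), all lower in e_iTreg. The differences were below 0 for 32 of the 44 genes, beside 9661 of all 23521 probe sets. Over the 44 genes the median was -0.09 (all probe sets 0.03), and the differences ran from -0.35 to 0.23. The median moved with the scaling, to -0.17 with the arrays centred on their medians, where 9 members had an unadjusted p under 0.05 (8.02% of all probe sets), and to -0.06 with quantile normalization, where 3 had. For the immunoproteasome genes they were -0.18 ± 0.11 for Psmb9, -0.11 ± 0.10 for Psmb10 and -0.11 ± 0.09 for Psmb8. The 95% intervals of these 3 end at 0.05, 0.09 and 0.09.

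Cell cycle genes moved with the same groups. Of 29 measured genes of a replication and mitosis list (Mcm2, Mcm3, Cdc45, Tk1 and others), 28 rose in iTreg in each comparison, and the list mean was 9.91, 9.49, 9.88 and 9.13 in iTreg, 8.26, 8.73, 7.58 and 7.37 in e_iTreg and 8.69, 7.83, 7.70 and 7.30 in eTreg. The iTreg arrays did not overlap the others on this measure either. Among the 8 arrays from mice without DTx, the cell cycle mean ran from 7.30 to 8.73 while the constitutive beta mean ran from 9.91 to 10.13. The 2 arrays with the highest cell cycle means among those 8, e_iTreg replicate 2 and eTreg replicate 1, also had the highest constitutive beta means, at 10.13 and 10.07. Other classes had other orders among those 8. The alpha ring mean was highest in e_iTreg replicate 3 (9.77) and eTreg replicate 4 (9.76). The immunoproteasome mean was highest in eTreg replicate 4 (10.69), which had the lowest cell cycle mean (7.30). The cap ATPase and cap non-ATPase means were highest in eTreg replicate 1 (9.67 and 9.36). Within iTreg, replicate 4 had the lowest cell cycle mean and a constitutive beta mean of 10.47, beside 10.43 in replicate 1, which had the highest. Immunoproteasome means within iTreg were 11.06 in replicate 4 and 10.87 in replicate 1. The alpha ring and the cap non-ATPases had the other order, with means of 10.07 and 9.73 in replicate 4 and of 10.10 and 9.76 in replicate 1.

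With the cell cycle mean of each array as a term in the fit, none of the 44 genes passed in either comparison (limma), and 0.0553% and 0.115% of all probe sets did. In that fit 12 and 23 members had an unadjusted p under 0.05 (8.57% and 8.80% of all probe sets), and the median differences were 0.30 against eTreg and 0.37 against e_iTreg. Since the cell cycle mean separates the groups, its part in the result cannot be told apart from the group.

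**Figure D4:**
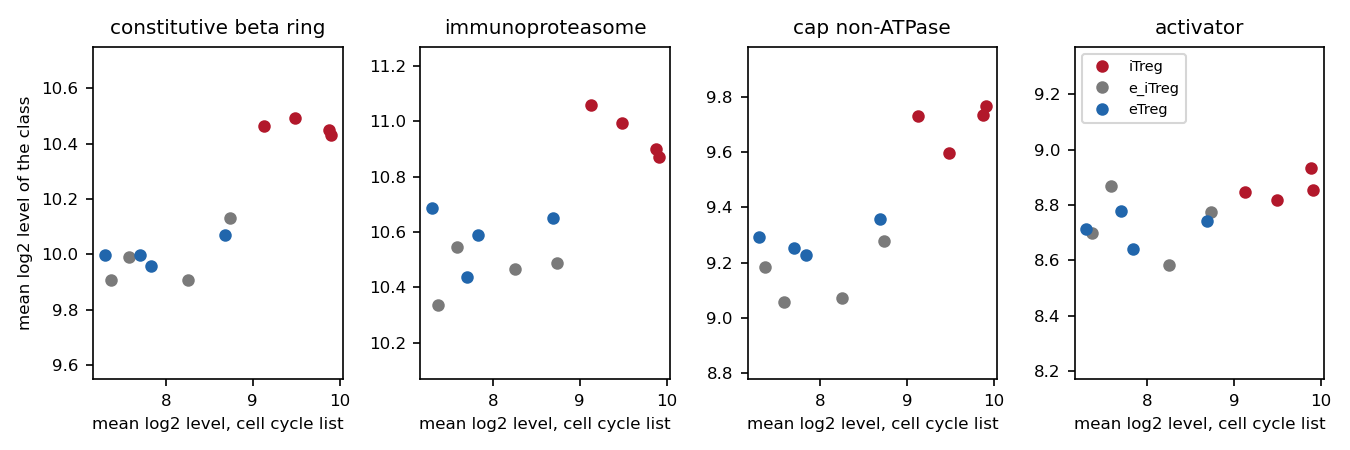
Mean log2 level of 4 classes (y axis) against the mean log2 level of 29 cell cycle genes (x axis), 1 point per array. iTreg arrays lie right of and above the others in the first 3 panels, the iTreg array with the lowest cell cycle mean (9.13) has the highest immunoproteasome mean (11.06), and all 12 arrays lie between 8.58 and 8.93 in the activator panel.

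Some markers of other cells rose in iTreg, and the B cell markers measured (14 of 15) did not. Of the red blood cell list only 2 of 9 were measured. These were dim, with list means of 5.58 to 6.31 over the 12 arrays, so they say little about red blood cells. In these 2 lists 0 of 14 and 0 of 2 were called in either comparison (limma), with 0 at an unadjusted p under 0.05. The plasma cell list mean (10 of 11 measured) was 7.78, 7.42, 7.56 and 9.23 in iTreg, 7.04 to 7.43 in e_iTreg and 6.94 to 7.35 in eTreg, and 2 of the 10 (Prdm1 and Txndc5) rose against eTreg and 1 of 10 against e_iTreg, beside 5.36% and 6.49% of all probe sets. In iTreg replicate 4 Jchain was at 11.69, beside 6.66 to 8.18 in the other iTreg arrays, 5.42 to 6.94 in e_iTreg and 4.84 to 6.68 in eTreg. Without that array, 17 and 27 of the 44 genes passed (8.08% and 8.80% of all probe sets) and the median differences were 0.36 and 0.43. With the plasma cell mean as a term, 3 and 18 passed (2.84% and 4.80% of all probe sets), with medians of 0.31 and 0.43. The CD8 T and NK cell list mean (15 of 15) was 7.35 to 7.79 in iTreg, 6.53 to 7.14 in e_iTreg and 6.49 to 7.15 in eTreg, with 5 of 15 genes higher in each comparison. The monocyte, macrophage and dendritic cell list mean (14 of 17) was 6.97 to 7.89 in iTreg, 6.38 to 7.04 in e_iTreg and 6.42 to 7.05 in eTreg, so that iTreg overlapped both groups, with 2 of 14 genes higher in each comparison and 1 lower against e_iTreg. The part of these 2 lists in the result was not tested, and more cells of a type cannot be told apart from more RNA per cell in sorted bulk samples.

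Of 13 measured assembly and associated factors, which build or accompany the proteasome, 2 rose against eTreg and 6 against e_iTreg (5.36% and 6.49% of all probe sets rose), and 4 of the 13 had differences below 0 against eTreg, with medians of 0.15 and 0.34. Psmg3, a chaperone of the alpha ring, was at 8.06, 8.38, 8.40 and 8.38 in iTreg, at 7.78, 7.80, 7.83 and 7.87 in e_iTreg and at 7.72, 7.75, 7.73 and 7.88 in eTreg and differed by 0.54 ± 0.10 (adjusted p = 0.00290) against eTreg. Uchl5, a deubiquitinase of the cap, was at 10.14, 9.60, 10.02 and 9.85 in iTreg, at 8.85, 9.33, 8.96 and 8.98 in e_iTreg and at 9.40, 9.01, 9.29 and 9.30 in eTreg and differed by 0.65 ± 0.14 (adjusted p = 0.00683). Sem1, a small cap subunit outside the naming rule, was at 11.38, 11.43, 11.33 and 11.39 in iTreg, at 10.87, 11.20, 11.20 and 10.82 in e_iTreg and at 11.09, 11.05, 11.07 and 11.0 in eTreg. The iTreg arrays overlapped neither group, but Sem1 did not pass against eTreg (0.33 ± 0.10, adjusted p = 0.0536) and did against e_iTreg (0.36 ± 0.10, adjusted p = 0.0325). Pomp, the chaperone that matures the beta ring and favours the immunoproteasome, was at 10.28, 10.31, 10.39 and 10.68 in iTreg, at 9.45, 9.84, 7.83 and 9.28 in e_iTreg and at 9.91, 9.57, 9.56 and 9.75 in eTreg. Its iTreg arrays all lay above the other 8, while e_iTreg replicate 3 lay far below the rest, and the difference was 0.72 ± 0.30 (adjusted p = 0.171) against eTreg and 1.32 ± 0.30 (adjusted p = 0.0118) against e_iTreg.

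Of 10 measured regulators of proteasome gene transcription, 0 rose and 2 fell against eTreg, and 1 rose (Nfyb, an NF-Y subunit, 0.76 ± 0.18 (adjusted p = 0.0125)) and 2 fell against e_iTreg. The median differences of the 10 were -0.005 and 0.009, and over all probe sets 4.63% and 4.75% fell. The 2 that fell against eTreg were the repressor Bach1, at 8.07, 8.02, 8.0 and 8.05 in iTreg, at 8.26, 8.50, 8.73 and 8.76 in e_iTreg and at 8.54, 8.56, 8.89 and 8.31 in eTreg, and the small Maf partner Mafk, at 8.69, 8.43, 8.53 and 8.38 in iTreg, at 8.75, 8.89, 8.83 and 9.07 in e_iTreg and at 8.81, 8.77, 9.17 and 8.89 in eTreg. They differed by -0.54 ± 0.13 (adjusted p = 0.0167) and -0.40 ± 0.11 (adjusted p = 0.0353) against eTreg. Maff, another small Maf, did not pass (-0.43 ± 0.15, adjusted p = 0.0809), and Nfe2l1, the factor known to raise proteasome genes when the proteasome is impaired, had a difference of -0.08 ± 0.09 (adjusted p = 0.733).

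Among ubiquitin genes, activating enzymes and shuttle factors (9 of 16 measured), 0 rose and 1 (Ubqln4) fell against eTreg, where 4.63% of all probe sets fell. In so short a list, 1 call is close to that share. Against e_iTreg 0 passed (limma), and 4 had an unadjusted p under 0.05, beside 26.3% of all probe sets. The medians were 0.08 and 0.14. Ubqln4, a shuttle that carries ubiquitinated proteins to the cap, was at 8.02, 8.15, 8.35 and 8.29 in iTreg, at 8.44, 8.36, 8.48 and 8.62 in e_iTreg and at 8.54, 8.46, 8.46 and 8.77 in eTreg and differed by -0.35 ± 0.11 (adjusted p = 0.0476) against eTreg. The segregase Vcp (0.24 ± 0.09, adjusted p = 0.115) and its cofactor Nploc4 (0.22 ± 0.11, adjusted p = 0.294) did not pass.

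In MHC class I antigen processing (11 of 12 measured), 2 rose against eTreg and 2 against e_iTreg (5.36% and 6.49% of all probe sets rose), with medians of 0.19 and 0.23. The 2 against eTreg were the chaperones Canx, at 11.41, 11.06, 11.27 and 11.37 in iTreg, at 10.78, 10.77, 10.79 and 10.73 in e_iTreg and at 10.89, 10.72, 10.75 and 10.85 in eTreg, and Calr, at 10.54, 10.11, 10.12 and 10.41 in iTreg, at 10.14, 10.01, 9.80 and 10.06 in e_iTreg and at 10.0, 9.79, 9.94 and 9.89 in eTreg, which also fold glycoproteins in general. They differed by 0.47 ± 0.09 (adjusted p = 0.00555) and 0.39 ± 0.12 (adjusted p = 0.0461). Pdia3 did not pass (0.24 ± 0.09, adjusted p = 0.102). Tap1, the peptide transporter that is known to share a divergent promoter with Psmb9, had a difference of 0.16 ± 0.11 (adjusted p = 0.480), beside 0.46 ± 0.11 (adjusted p = 0.0125) for Psmb9.

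In interferon-gamma signalling (11 of 13 measured), 0 rose and 2 fell against eTreg, and 1 fell against e_iTreg (4.63% and 4.75% of all probe sets fell), with medians of 0.06 and 0.11. In a list of this size, 1 call is close to that share. The receptor chain Ifngr2 was at 8.97, 9.21, 9.02 and 9.35 in iTreg, at 10.49, 10.06, 10.02 and 10.62 in e_iTreg and at 10.23, 10.07, 10.98 and 9.86 in eTreg and fell by 1.14 on the log2 scale in iTreg against eTreg (SE 0.20, adjusted p = 0.00301). The kinase Jak1 was at 11.77, 11.65, 11.73 and 11.85 in iTreg, at 12.02, 11.83, 12.09 and 12.06 in e_iTreg and at 11.95, 12.02, 12.17 and 12.10 in eTreg and differed by -0.31 ± 0.09 (adjusted p = 0.0479). Irf1, the interferon-induced factor known to bind the immunoproteasome promoters, was at 9.81, 9.97, 9.46 and 9.88 in iTreg, at 9.60, 9.37, 9.22 and 9.63 in e_iTreg and at 9.38, 9.73, 9.51 and 9.48 in eTreg, with overlapping groups (0.25 ± 0.13, adjusted p = 0.278).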

How the data were processed

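The authors deposited RMA values on a log2 scale, 1 per probe set, made with oligo (background correction, normalization between arrays and summary of the probes of a probe set), per the submitters' processing notes; the sources used here do not give their versions. The labels' protocols describe 2 rounds of amplification starting at 2 ng of RNA, which can shift levels of single transcripts. Of 41345 rows, 23521 had 1 gene symbol, 1814 had several and 16010 had none, and 23328 of the first had a gene number in the RefSeq table (GRCm38.p6), used to update names. Arrays were grouped by the series design, with 4 biological replicates per group.

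One linear model of all 12 arrays was fitted with limma 3.58.1 in R 4.3.3 (9 residual and 5.78 prior degrees of freedom) and p-values (two-sided) were Benjamini-Hochberg adjusted across 23521 rows. Genes under 0.05 after adjustment were called, whatever their fold. The fit was tested on simulated data. Log2 differences in iTreg minus eTreg had a median SE of 0.121, and 4 arrays a group limit the precision. Since nothing states which mice gave which array, a p-value covers the spread among arrays.

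The members and all gene lists were chosen with earlier results of these data known, so counts over them are descriptions. Genes were named by rule: the immunoproteasome genes, their partners and the activators always, in each other class the 3 members with the smallest p and the one with the lowest difference in iTreg minus eTreg, and the 3 smallest p of each pathway list. Psma2, Psma3, Psmb1, Psmb2, Psmb3, Psmc3, Psmc5, Psmd2, Psmd3, Psmd6, Psmd8, Psmd11, Psmd12, Psmd14, Pomp, Nfyb, Nfe2l1 and Tap1 were chosen after their values were seen. Alternatives changed the normalization, filter, rows, probe set rule, error model, samples, block, threshold and covariates, and left out each array in turn. The fits without the arrays with the signal of 1 sex and with the plasma cell mean were chosen after seeing the data.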

Additional observations from a re-analysis of the deposited data

Results flagged for a closer look

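In 117 sets of 4 arrays (a named gene or the mean of a class within 1 group), 7 held an array whose gap to the others was large for the range of the set, and chance gives this in about 1 in 20 sets. In eTreg, Psma7 was at 10.82 in replicate 1 (others 10.66 to 10.68), Psma5 at 5.37 in replicate 1 (others 5.53 to 5.56), Psmc4 at 9.53 in replicate 2 (others all at 9.61) and Psmd9 at 7.16 in replicate 4 (others 7.56 to 7.60). In e_iTreg, Psmc4 was at 9.25 in replicate 4 (others 9.42 to 9.43). In iTreg, Psmc2 was at 9.55 in replicate 4 (others 9.68 to 9.69) and Psmc1 at 9.58 in replicate 2 (others 9.94 to 10.00). The 7 values belong to 6 arrays, and in each case iTreg stayed above both other groups for Psma7, Psmc1, Psmc2 and Psmc4.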

How the results depend on the processing

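The count of genes called (28 in iTreg minus eTreg, 31 in iTreg minus e_iTreg) moved more than the differences, and no called gene changed sign in any fit that was run. With a 1.5-fold minimum, 5 and 13 were called (4.63% and 4.77% of all probe sets). With the cell cycle mean as a covariate, 0 and 0 were called, with the plasma cell mean 3 and 18, without the 3 arrays with the signal of 1 sex 8 and 12, and without the 3 arrays low in B cell markers 2 and 21 (medians in these 4 fits 0.30 to 0.37 and 0.37 to 0.43). Leaving out 1 array gave 13 to 23 calls against eTreg (6.32% to 9.41% of all probe sets) and 26 to 32 against e_iTreg (6.87% to 12.1%). In all 8 such fits 11 of the 28 and 23 of the 31 stayed called, and Psma2, Psmb8 and Psmc6 were lost in all 8 against eTreg. Quantile normalization gave 23 and 28 (10.5% and 11.5% of all probe sets), and median centring 27 and 33 (9% and 10.8%). Testing every row, named or not, gave 20 and 30, where 5.04% and 5.87% of all rows were called. In e_iTreg minus eTreg, 0 were called in every fit. The within-array difference of Psmb8 and Psmb5, which did not pass the permutation test, passed with limma at -0.39 (against eTreg) and -0.31 (against e_iTreg). The cause of these shifts was not tested, also where fewer arrays were fitted.

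With the replicate number as a block, 23, 29 and 0 genes were called in iTreg minus eTreg, iTreg minus e_iTreg and e_iTreg minus eTreg. Of all probe sets, 9.46%, 10.2% and 0% were called in that order. Arrays of the same number correlated at -0.15 to 0.24 in their deviations from the group means, and 3 of 12 arrays correlated best with an array of their own number, so the numbers were not taken to pair the samples. Probe sets dim in all groups, such as Psma5, bound what can be seen of them.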

Other observations

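Among the genes known to work beside the proteasome, Pomp had the largest difference of the assembly list in both comparisons but also the widest spread. In e_iTreg it was at 9.45, 9.84, 7.83 and 9.28, so replicate 3 alone lay below 9. The same array held the lowest e_iTreg values of Psmb2 (10.09) and Psmd13 (7.41), and the highest of Psmb3 (7.18) and Psme2 (8.73). In that array the dimmer Psmc2 probe set was at 6.36, beside 6.96 to 7.87 in the other e_iTreg arrays. Erap1, the peptidase that trims peptides for MHC class I, was at 9.51, 9.19, 9.45 and 9.61 in iTreg, at 8.88, 8.99, 9.02 and 9.23 in e_iTreg and at 9.34, 9.38, 9.24 and 9.59 in eTreg. It passed in iTreg minus e_iTreg (0.41 ± 0.12, limma adjusted p = 0.0341) and not in iTreg minus eTreg (0.05 ± 0.12, adjusted p = 0.888), and whether these 2 differences differ was not tested. Erap1 was named after its values were seen.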
